A study of Mus musculus with 12 samples.

Results

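In mice, a large set of genes is named Zfp followed by a number, and most of their products are C2H2 zinc finger proteins. Described here are the rows of the expression table with such a name and a mean of at least 1 TPM, a transcript abundance scaled for length and library size, over the 12 libraries, leaving out Zfp36, whose product binds RNA through a different kind of finger. That rule gave 296 genes of 17955 in the table. Of 364 rows with such a name, Zfp36 included, 67 had a mean below 1 TPM. The genes just inside the threshold were Zfp985 and Zfp457, each at 1.04 TPM, and those just outside were Zfp939 at 0.977 TPM and Zfp2 at 0.970 TPM. The set was picked because Zfp46 and Zfp82 were lower with dimethyl α-ketoglutarate (DMαKG) in the knockout, so the values of that comparison are given as a description and no test of them is read.

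The libraries were RNA-seq of Treg cells, the Foxp3-expressing CD4 T cells that restrain immune responses, sorted as CD4+CD25+YFP+ cells from spleen and lymph node of C57BL/6 mice at 7 weeks of age. Wild-type (WT) mice were Foxp3YFP-cre TKT+/+ and knockout (cKO) mice were Foxp3YFP-cre TKTfl/fl, so every group carried the YFP-Cre allele and Cre was driven by the Foxp3 locus. Tkt encodes transketolase, which moves carbon units between sugar phosphates in the pentose phosphate pathway. DMαKG, an ester form of α-ketoglutarate, or vehicle was given in the drinking water from the mothers' pregnancy until the offspring were adult. The 4 groups were WT vehicle, WT DMαKG, cKO vehicle and cKO DMαKG, with 3 libraries each. The vehicle libraries were numbered 2, 3 and 4 and the DMαKG libraries 1, 2 and 3. The labels do not say whether a library pooled animals, so p-values measure the spread between these libraries.

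Summed counts were 1.57e+07 to 1.89e+07 per library. Tkt was at 102 to 194 CPM (counts divided by the TMM-scaled library size, with no scaling for length) in the 6 WT libraries and at 26.2 to 41.8 CPM in the 6 cKO libraries. Foxp3 was at 279.6 to 545 CPM in all 12. Summed TPM of 7 Treg marker genes was 2730 to 3532 in cKO vehicle and 4564 to 5218 in cKO DMαKG, and summed TPM of 6 B cell markers did not exceed 45.8 in any library. The sums were 52.0 to 120.9 for macrophage and monocyte markers, 4.51 to 35.5 for dendritic cell markers, 27.1 to 37.0 for CD8 T and NK cell markers and 3.36 to 76.7 for erythroid markers. Ddx3y, a Y-linked gene, was at 0.056, 0.518 and 0.509 CPM in WT vehicle replicate 3 and cKO DMαKG replicates 1 and 3, and at 22.6 CPM or more in the other 9 libraries. On the first principal component of log2 CPM, with 27.9% of the variance, 3 libraries stood together whatever their group, namely replicate 4 of both vehicle groups and replicate 3 of WT DMαKG. The library farthest from them was replicate 3 of cKO DMαKG. Results that rest on these libraries are given with and without them.

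A C2H2 finger is a short fold held by a zinc ion, and fingers in a row read DNA bases one stretch after another. Many of the proteins also carry a KRAB domain at the N terminus, which recruits TRIM28 and, through it, the histone methyltransferase SETDB1, and so places repressive H3K9 methylation at transposons, imprinted loci and other sites. KRAB zinc finger genes arose by repeated duplication and lie in clusters, chiefly on a few chromosomes. Because duplicated copies share sequence, short reads from them can be hard to assign.

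The promoters of both genes that led to the choice of the set are shown because the description starts from these genes. They are RefSeq starts in GRCm38.p6, from 250 bases before to 20 bases after the start, written 5′ to 3′ on the gene's strand. Zfp46 has a pair of annotated starts, at chr4:136284426-136284695 (plus strand) and chr4:136285817-136286086 (plus strand). Zfp82 has a start in chr7:30072804-30073073 (minus strand). Capitals mark matches to 6 short motifs searched on both strands, the GC box GGGCGG, the ETS core CCGGAA, a YY1-like AAGATGG, a CRE-like TGACGT, an NRF1-like GCATGCG and the E-box CACGTG.
Zfp46 first start: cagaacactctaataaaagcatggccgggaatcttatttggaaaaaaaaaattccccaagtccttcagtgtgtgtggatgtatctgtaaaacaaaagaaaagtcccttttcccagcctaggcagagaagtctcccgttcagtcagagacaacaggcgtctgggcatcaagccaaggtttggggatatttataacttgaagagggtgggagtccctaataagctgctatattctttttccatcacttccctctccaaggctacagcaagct
Zfp46 second start: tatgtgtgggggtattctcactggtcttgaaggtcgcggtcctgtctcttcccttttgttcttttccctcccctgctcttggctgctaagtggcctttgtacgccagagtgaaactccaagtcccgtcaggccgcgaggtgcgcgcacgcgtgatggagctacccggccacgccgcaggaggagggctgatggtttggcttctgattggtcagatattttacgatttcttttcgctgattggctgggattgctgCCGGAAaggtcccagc
Zfp82: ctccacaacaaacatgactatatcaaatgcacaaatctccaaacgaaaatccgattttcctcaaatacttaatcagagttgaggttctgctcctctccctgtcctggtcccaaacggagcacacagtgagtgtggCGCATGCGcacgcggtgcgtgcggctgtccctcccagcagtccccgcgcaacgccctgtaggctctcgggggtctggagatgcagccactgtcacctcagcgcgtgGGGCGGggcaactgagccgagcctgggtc

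The first Zfp46 start held none of these letters, the second held the ETS core close to the start, and Zfp82 held a GC box close to the start and, farther upstream, overlapping NRF1-like letters on both strands. In windows of 300 bases, of which 50 lie after the start, 248 of the 296 genes and 10373 tested genes in all had a promoter. The GC box was in 48.0% of the Zfp promoters and in 65.9% of all, and the ETS core in 42.7% against 30.8%. The other motifs differed less, with the NRF1-like letters in 7.66% against 7.11%, the CRE-like letters in 13.3% against 13.0%, the YY1-like letters in 9.27% against 8.30% and the E-box in 8.87% against 11.4%. Zfp promoters held a median of 15 CpG dinucleotides, against 21 over all tested genes. A match is a description of the letters and does not show that a factor binds there.

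Zfp genes were expressed at modest levels in these cells. Their mean TPM ran from 1.04 to 190 with a median of 12.4, against a median of 21.9 over the 12903 genes tested. At least 50 TPM was reached by 23 of the 296, at least 10 TPM by 166, and 72 were below 5 TPM. The most abundant was Zfp207, which encodes a spindle assembly factor, at 190 TPM. It was followed by Zfp706 at 162 TPM, Zfp740 at 104 TPM and Zfp281, a factor that binds GC-rich DNA, at 93.9 TPM. Next came Zfp622, which acts in maturation of the large ribosomal subunit, at 92.1 TPM and Zfp638 at 85.2 TPM. Zfp91, which encodes a ubiquitin ligase of non-canonical NF-κB signalling, was at 83.7 TPM and Zfp445, a KRAB protein that protects imprints, at 72.0 TPM. Zfp330 at 68.5 TPM and Zfp148, a binder of GC-rich promoters, at 67.6 TPM closed the first 10. Zfp46 at 7.32 TPM and Zfp82 at 8.2 TPM ranked 195 and 183 of 296.

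Protein features were read from translated GENCODE coding sequences, which 295 of the 296 genes had. At least 1 C2H2 pattern was found in 288, with a median of 11 fingers and a maximum of 36 in Zfp142. At least 10 fingers were present in 168. The 7 with no match were Zfp330, Zfp365, Zfp703, Zfp781, Zfp839, Zfp935 and Zfp972. A KRAB-like pattern was found in 142 of 295, or 48.1%, and in 0.341% of the other tested genes. Chromosome 7 held 73 of the genes, chromosome 17 held 37 and chromosome 13 held 29. With gaps under 500 kb, 203 of the 296 lay in runs of 2 or more and 127 lay in 14 runs of 5 or more. Sequence sharing was common. With both strands searched, 105 genes had at least 5% of their transcript's 50-base words in other genes. At least 20% was reached by 53. Such sharing can come from genes that overlap at one locus as well as from duplicated copies. For genes that share words the counting could split or lose reads. A fractional count in some library was present for 214 of the 296 genes. Such counts did not follow the sharing in every gene. Zfp82, with 41.4% shared, had a fractional count in 0 libraries, and Zfp74, with 0% shared, in 12.

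The members' share of the transcriptome was lower with DMαKG than with vehicle in the knockout. Their summed TPM was 4751, 5270 and 4311 in cKO DMαKG and 5489 to 6262 in cKO vehicle. In WT it was 5956 to 6529 with vehicle and 5326, 5248 and 6421 with DMαKG. The DMαKG groups of the 2 genotypes thus overlapped, with 5270 in cKO replicate 2 and 5248 in WT replicate 2. Measured as each gene's log2 CPM minus its own mean over the 12 libraries, the median over the 296 genes was -0.199, -0.149 and -0.142 in the cKO DMαKG libraries. It was 0.152, -0.027 and 0.097 in cKO vehicle, 0.071, 0.158 and 0.167 in WT vehicle, and -0.010, -0.141 and 0.158 in WT DMαKG. The cKO DMαKG libraries were thus below every cKO vehicle library, whereas WT DMαKG replicate 3 lay among the WT vehicle libraries and the WT groups overlapped. The number of the 296 genes above their own mean was 56 to 103 in cKO DMαKG, 131 to 225 in cKO vehicle, 207 to 242 in WT vehicle and 85 to 233 in WT DMαKG. Over the 12 libraries the median over the 296 genes had a Pearson r of 0.82 with the first principal component. On that component cKO DMαKG lay at -20.5, -17.7 and -48.4 and cKO vehicle at 21.6, 6.56 and 35.1. WT DMαKG lay at -13.6, -23.3 and 31.2 and WT vehicle at -0.92, -4.17 and 34.1. With the median of 78 ribosomal protein genes the r was -0.56. The part of the component in the Zfp values was not tested. In bulk RNA, fewer cells with a transcript and less transcript per cell cannot be told apart.

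**Figure D1:**
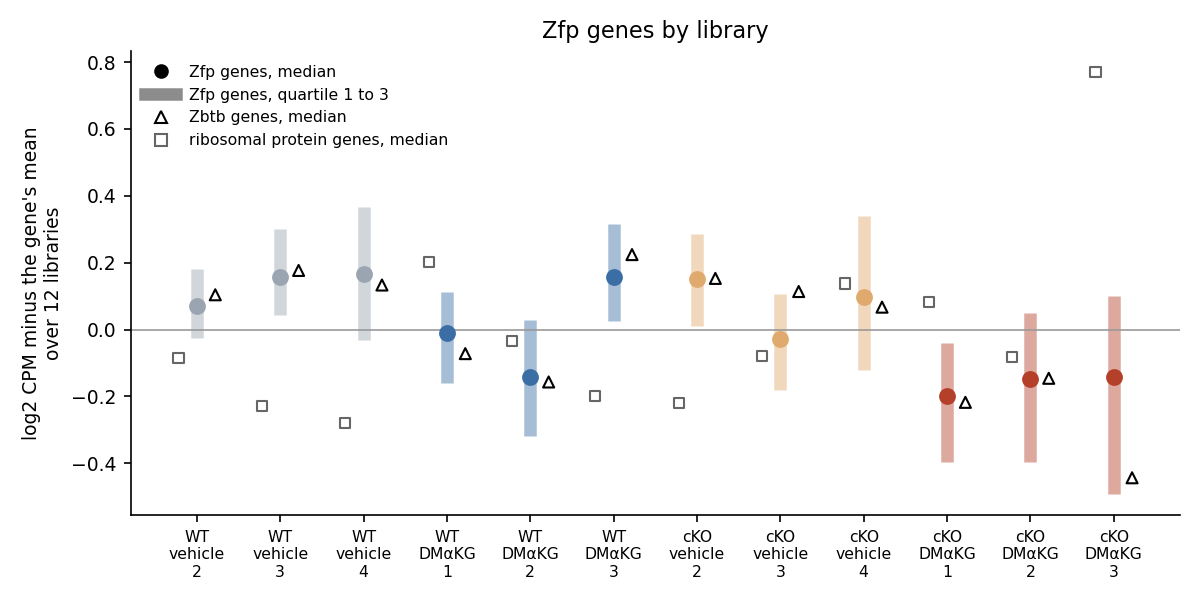
Each filled point is the median over 296 Zfp genes of log2 CPM minus the gene's mean over 12 libraries, and the bar runs from quartile 1 to quartile 3 of the genes. Triangles are 38 Zbtb genes and squares are 78 ribosomal protein genes. The 3 cKO DMαKG libraries have Zfp medians of -0.199 to -0.142, and ribosomal protein genes stand at 0.771 in cKO DMαKG replicate 3.

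Treg cells of WT mice give the comparison of DMαKG with vehicle that shares no library with the one that led to the choice. Zfp genes were more often lower than higher with DMαKG there. The log2 fold change was below 0 for 221 of the 296 (74.7%), where 50.2% of all tested genes were below 0, and its median was -0.12 against 0.00 over all tested genes. No Zfp gene passed edgeR's quasi-likelihood test at a Benjamini-Hochberg adjusted p of 0.05, and 0% of all tested genes did. At an unadjusted p under 0.05 there were 13 Zfp genes (4.39%), against 2.73% of all tested genes, and that count was 1 without WT DMαKG replicate 2, 67 without WT DMαKG replicate 3 and 87 with limma voom. Neither DESeq2 nor limma voom called a Zfp gene, and they called 0.0155% and 0.062% of all genes. In 18 Zfp genes (6.08%) every DMαKG library was below every vehicle library, against 3.86% of all tested genes, and in 6 every one was above, against 4.59%. The median was -0.06 without WT DMαKG replicate 2 and -0.20 without WT DMαKG replicate 3. Without the 3 libraries that stood together it was -0.17, and 43 Zfp genes had an unadjusted p under 0.05. For these counts under other settings, here and below, no share of all tested genes is given. They are not read as particular to Zfp genes.

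Zfp46 and Zfp82 showed the same direction in WT. Zfp46 was at 16.7, 16.2 and 23.3 CPM in WT vehicle and 12.3, 11.7 and 18.7 CPM in WT DMαKG. The highest DMαKG library lay above the lower vehicle libraries, so the groups overlapped, and the log2 fold change was -0.40 (SE 0.26, edgeR adjusted p = 0.999). Zfp82 was at 8.81, 9.05 and 9.13 CPM in WT vehicle and 6.97, 5.61 and 8.16 CPM in WT DMαKG. Every DMαKG library was below every vehicle library, with a log2 fold change of -0.38 (SE 0.16, edgeR adjusted p = 0.999). Zfp82 shares 41.4% of its 50-base words with other genes, so its level is uncertain. Gm26920, which shares the most of them, has no row in the table.

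The genes with the smallest unadjusted p in WT were named by rule. Among those lower, Zfp948 had a log2 fold change of -0.86 (SE 0.30), Zfp773 -0.61 (SE 0.26), Zfp7 -0.48 (SE 0.18), Zfp808 -0.41 (SE 0.18) and Zfp983 -0.41 (SE 0.17). All but Zfp808 carry a KRAB-like pattern, and Zfp808 shares 40.4% of its words with other genes, most of all with Zfp934. Zfp948 was at 13.0, 8.94 and 16.5 CPM with vehicle and 6.21, 5.50 and 9.55 CPM with DMαKG, which overlapped. Among those higher, Zfp112 had 0.75 (SE 0.24), Zfp449 0.54 (SE 0.28), Zfp1 0.37 (SE 0.13), Zfp869 0.34 (SE 0.18) and Zfp148 0.17 (SE 0.11). Zfp112 was at 1.58, 1.89 and 1.52 CPM with vehicle and at 2.69, 3.46 and 2.24 CPM with DMαKG, without overlap. The edgeR adjusted p of each of these 10 was 0.999.

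In cKO Treg cells, where the choice was made, Zfp46 was at 17.1, 19.7 and 24 CPM with vehicle and at 6.22, 10.04 and 5.28 CPM with DMαKG. All 3 DMαKG libraries were below the lowest of the other 9 libraries. Its log2 fold change was -1.49 (SE 0.27), the third lowest of the 296. Zfp82 was at 9.75, 9.39 and 9.02 CPM with vehicle and at 4.66, 4.62 and 5.47 CPM with DMαKG. These were the lowest values of the gene in the study, and its log2 fold change was -0.93 (SE 0.17). Both proteins have 12 fingers and a KRAB-like pattern, and neither gene passed the adjusted threshold of the quasi-likelihood test.

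**Figure D2:**
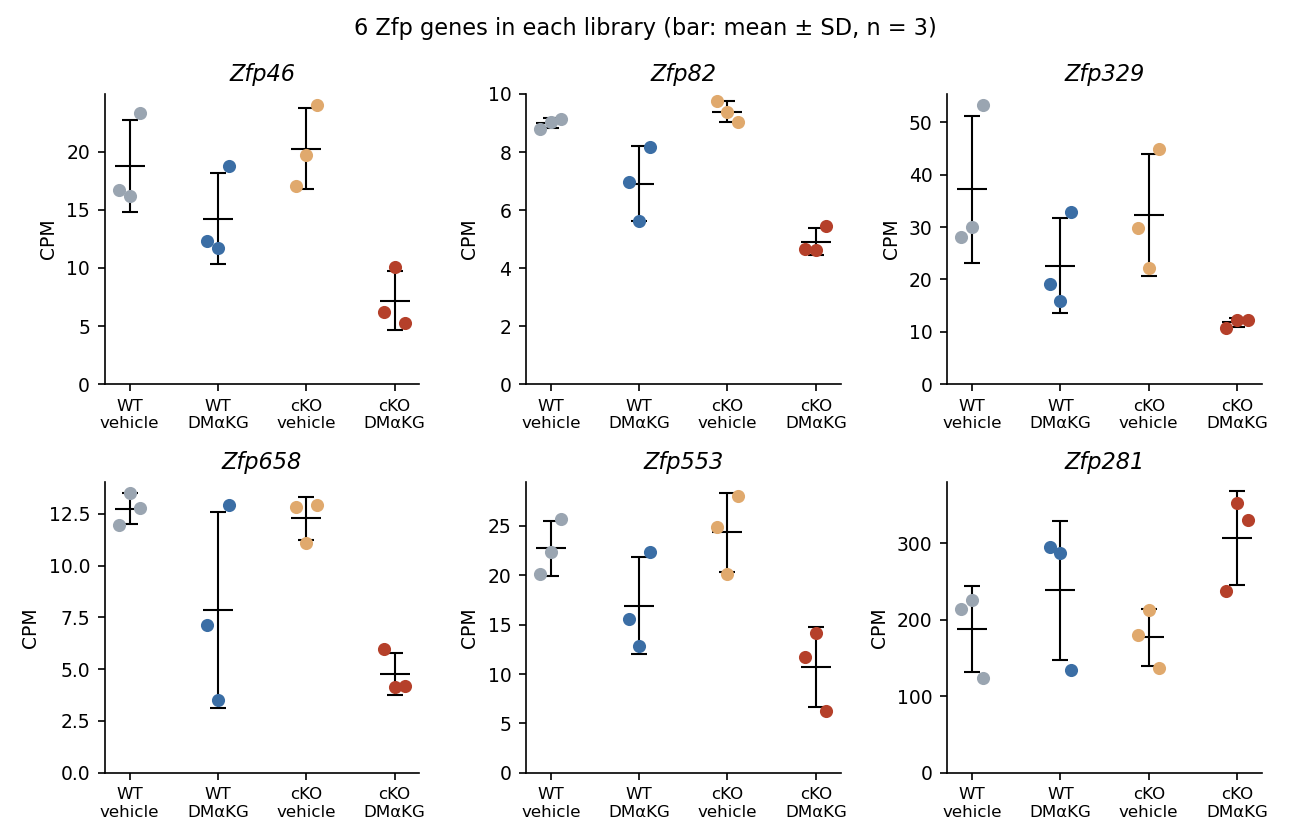
CPM of 6 Zfp genes in each of the 12 libraries, grouped by genotype and treatment, with bars for mean and SD of 3 libraries. The group means of Zfp46, Zfp82, Zfp329, Zfp658 and Zfp553 are lowest in cKO DMαKG. The lowest single library of Zfp658 is WT DMαKG replicate 2, at 3.51 CPM. The group mean of Zfp281 is highest in cKO DMαKG, with values of 237, 352 and 330 CPM.

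Across the 296 genes in cKO, 229 (77.4%) had a log2 fold change below 0 with DMαKG, against 49.6% of all tested genes. The median was -0.25, against 0.00 over all tested genes, and 74 genes were more than 0.5 lower while 6 were more than 0.5 higher. In 94 (31.8%) every DMαKG library was below every vehicle library, against 12.2% of all tested genes, and in 11 every one was above, against 8.91%. edgeR's quasi-likelihood test called 0 of the 296 and 0% of all tested genes at an adjusted p of 0.05, with 99 of the 296 (33.4%) and 17.4% of all at an unadjusted p under 0.05. DESeq2 called 19 of the 296 (6.42%), all lower, against 3.17% of all genes, and limma voom called 15 (5.07%), of which 13 were lower, against 3.49%. Since this comparison led to the set, nothing is read from these counts. Without cKO DMαKG replicate 3 the median was -0.25 and without the 3 libraries that stood together it was -0.23. With the level of Y-linked genes as a covariate it was -0.22, and 48 of the 296 had an unadjusted p under 0.05. Ddx3y was at 0.518 and 0.509 CPM in cKO DMαKG replicates 1 and 3 and at 156 to 219 CPM in cKO vehicle. The Y-linked level and DMαKG therefore cannot be fully told apart in this comparison. Summed Treg marker TPM was higher in cKO DMαKG than in cKO vehicle without overlap, and its part in these values was not tested.

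Beyond Zfp46, the genes lower by the largest differences without overlap in cKO, among those averaging 5 CPM or more in either cKO group, were Zfp329, Zfp658, Zfp563, Zfp553, Zfp189, Zfp397, Zfp101, Zfp967 and Zfp217, with log2 fold changes from -1.45 to -0.99. Zfp329 was at 29.8, 22.2 and 45 CPM in cKO vehicle and 10.8, 12.3 and 12.3 CPM in cKO DMαKG. Zfp658 was at 12.8, 11.1 and 12.9 CPM and 5.96, 4.15 and 4.2 CPM. Zfp553 was at 24.9, 20.1 and 28.1 CPM and 11.7, 14.1 and 6.23 CPM. In each of these 3 the DMαKG libraries were all below the vehicle libraries, and the vehicle libraries were more spread out in Zfp329 than in Zfp658. Zfp217, a transcription factor found in corepressor complexes, was at 121, 105 and 111 CPM and 74.0, 64.8 and 30.1 CPM, with its lowest value in cKO DMαKG replicate 3. Zfp967 is uncertain, since 97.5% of its words are shared with other genes, most of all with Zfp966. All 9 were also lower in WT with DMαKG, by log2 fold changes of -0.72 to -0.24. Under 5 CPM, Zfp708, Zfp418 and Zfp493 were lower in cKO without overlap by differences as large, at -1.53, -1.41 and -1.14.

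Among genes averaging 5 CPM or more in either cKO group, those higher in cKO with DMαKG without overlap were led by Zfp281 at 0.79 (SE 0.30), Zfp869 at 0.55 (SE 0.19) and Zfp991 at 0.50 (SE 0.16). Zfp281 was at 180, 213 and 137 CPM with vehicle and 237, 352 and 330 CPM with DMαKG, whereas in WT it was at 214, 226 and 123 CPM and 295, 287 and 134 CPM. Its lowest value in each of the other 3 groups came from one of the 3 libraries that stood together. Zfp458, Zfp277, Zfp868, Zfp91 and Zfp148 followed at 0.43, 0.40, 0.40, 0.24 and 0.20. Zfp991 shares 84.9% of its words with other genes, most of all with Znf41-ps, and is uncertain. Under 5 CPM, Zfp960, Zfp112 and Zfp449 were also higher without overlap, at 1.56, 0.69 and 0.52.

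The 2 DMαKG comparisons, which share no library, were set side by side gene by gene. Of the 296 genes 188 (63.5%) were lower in both, against 32.0% of all tested genes, and 34 were higher in both. Of the 94 genes lower without overlap in cKO, 90 (95.7%) had a log2 fold change below 0 in WT, against 74.7% of all 296. Of the 94, 7 were also lower without overlap in WT, which is 7.45% of them, against 6.08% of all 296. Those 7 are 38.9% of the 18 in WT. The 94 come from the comparison that led to the choice, so nothing is read from these counts. Across the 296 genes the log2 fold changes had a Pearson r of 0.61, against 0.28 across all tested genes. The points share libraries and normalisation within each comparison and are not independent replicates. In 209 of the 296 the cKO fold change was the lower of the pair.

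**Figure D3:**
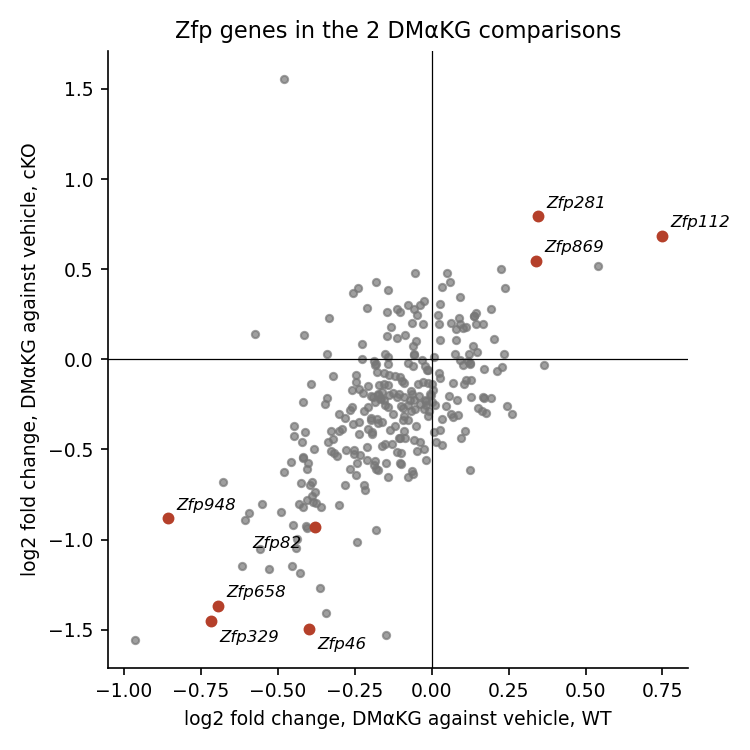
Each point is 1 of 296 Zfp genes, with the log2 fold change of DMαKG against vehicle in WT on the horizontal axis and in cKO on the vertical axis. Most points, 188 of 296, lie at the lower left, below 0 on both axes, and the named genes are in red.

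**Figure D4:**
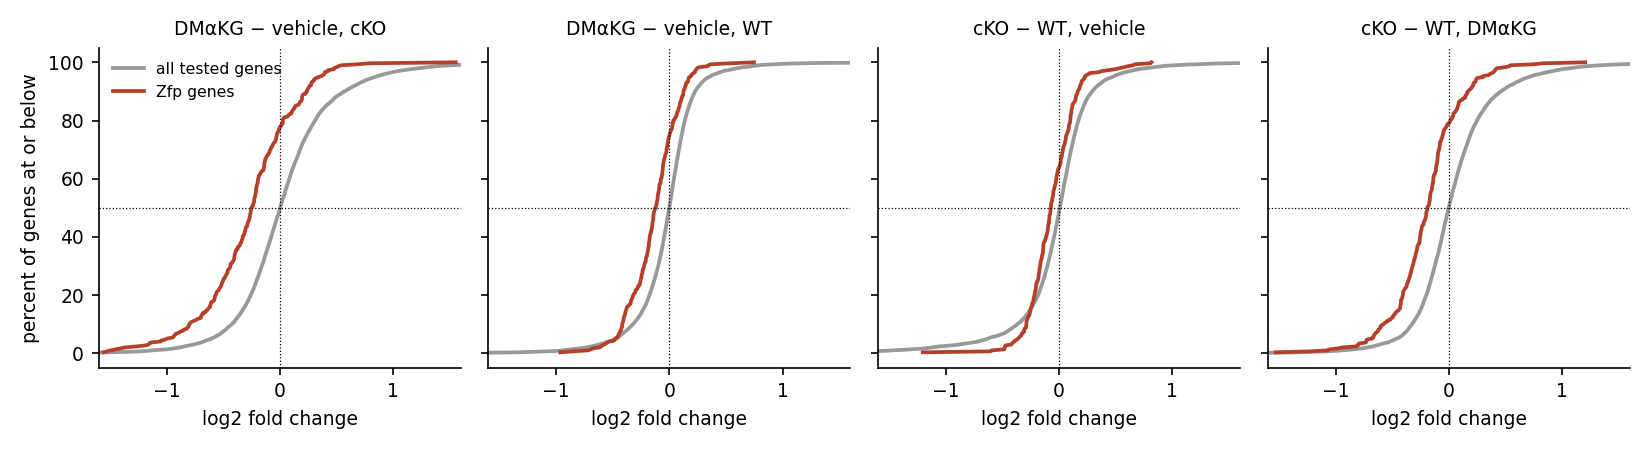
Cumulative percent of genes at or below each log2 fold change, for 296 Zfp genes in red and 12903 tested genes in grey, in 4 comparisons. The axis is limited to the central range. The red curve crosses 50 percent at -0.25, -0.12, -0.07 and -0.19 from left to right, and the grey curve crosses near 0 in each.

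The genes with more fingers had the lower medians in WT too. With at least 10 fingers 142 of 168 were lower with DMαKG in WT, median -0.19, and with 1 to 9 fingers 75 of 120 were lower, median -0.05. In cKO the same classes had 139 of 168, median -0.31, and 86 of 120, median -0.20. With a KRAB-like pattern 118 of 142 were lower in WT, median -0.16, and without it 102 of 153, median -0.07. In cKO these medians were -0.25 and -0.24. In runs of 2 or more 168 of 203 were lower in WT, median -0.16, and outside runs 53 of 93, median -0.04. These classes overlap in membership, and their differences were not tested. The 190 genes sharing under 5% of their words had 139 lower in WT, median -0.11, and 150 lower in cKO, median -0.26.

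By mean TPM, the 98 lowest genes had a median of -0.17 in WT and -0.30 in cKO, and the middle 99 had -0.17 and -0.29. The 99 highest had -0.06 and -0.19, and these differences were not tested. The Zfp transcripts had a median length of 3.57 kb, against 2.88 kb over all tested genes. With each library's trend on transcript length removed, the medians were -0.10 in WT and -0.20 in cKO.

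Other families of the same or other kinds gave a scale for these values. Zbtb genes, which join C2H2 fingers to a BTB domain, were lower with DMαKG in 28 of 38 in WT, median -0.15, and in 32 of 38 in cKO, median -0.33. Zscan and Zkscan genes were lower in 10 of 19 in WT, median -0.05, and in 15 of 19 in cKO, median -0.43. Klf genes, with few fingers, were lower in 5 of 13 and 4 of 13, with medians of 0.05 and 0.30. The 237 tested genes outside the 296 with at least 3 fingers had 157 lower in WT, median -0.10, and 151 lower in cKO, median -0.16. They include Zbtb, Zscan or Zkscan and Klf genes, so these sets overlap. Ribosomal protein genes were higher in 76 of 78 in WT, median 0.20, and in 77 of 78 in cKO, median 0.36. Their part in the Zfp values was not tested.

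The run on chromosome 7 that holds Zfp82 spans positions 29768552 to 30169775 (mm10) and contains 14 of the genes. In cKO 13 of 14 were lower with DMαKG, median -0.53, and 10 were so without overlap, against 94 of the 296 Zfp genes and 12.2% of all tested genes. The run is described because it holds Zfp82, so nothing is read from these counts. In WT 12 of 14 were lower, median -0.19. Zfp790 followed Zfp82 closely, at 24, 24.2 and 31.5 CPM in cKO vehicle and 16.1, 13.0 and 13.2 CPM in cKO DMαKG. Zfp940 was the 1 gene of the run on the other side, at 14.9, 12.4 and 11.9 CPM and 13.9, 16.1 and 18.4 CPM, which overlapped. Zfp568, a KRAB protein that silences a placental transcript of Igf2, was at 24.1, 21.8 and 18.2 CPM and 18.1, 17.0 and 13.5 CPM. Zfp46, on chromosome 4 at 136284168 to 136293942, had no other of the 296 genes within 500 kb.

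**Figure D5:**
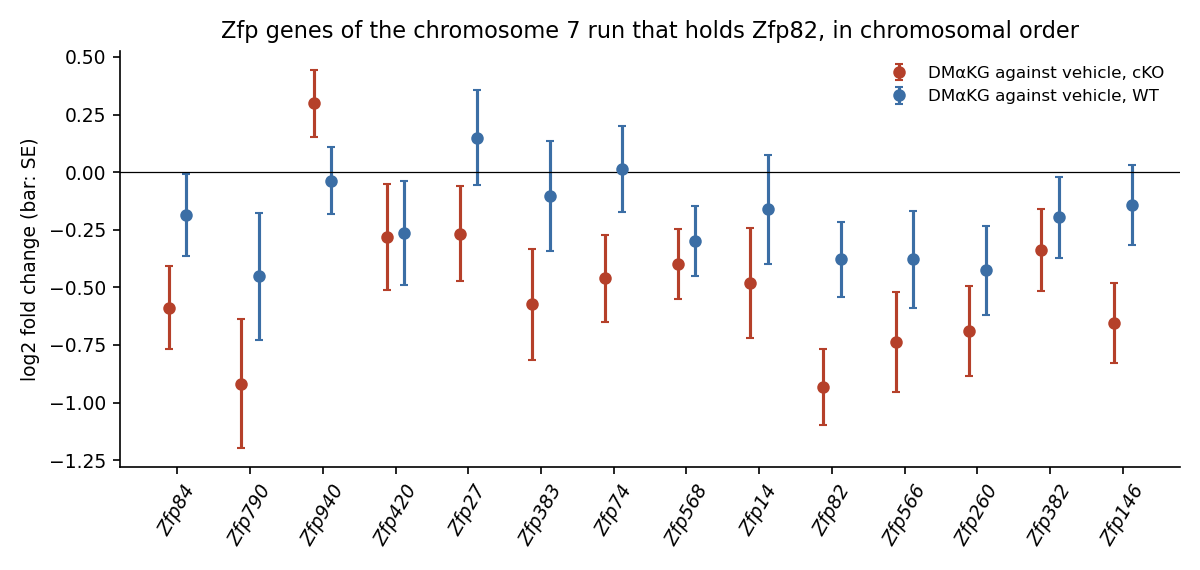
Log2 fold changes of DMαKG against vehicle for the 14 Zfp genes of the chromosome 7 run, in chromosomal order, with bars for SE, in cKO (red) and WT (blue). In cKO 13 of the 14 points are below 0, and Zfp82 and Zfp790 are the lowest at -0.93 and -0.92.

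Loss of Tkt alone was compared in vehicle-treated cells, cKO against WT, where 188 of the 296 genes (63.5%) were lower, against 48.4% of all tested genes, with a median of -0.07 against 0.01. No Zfp gene passed edgeR's quasi-likelihood test and 0.0233% of all tested genes did. At an unadjusted p under 0.05 there were 19 Zfp genes (6.42%), against 7.40% of all. DESeq2 called none of the 296 and 0.775% of all genes. limma voom called 6 (2.03%), against 1.9% of all, namely Zfp182, Zfp26, Zfp358, Zfp516, Zfp871 and Zfp960. In 29 (9.80%) every cKO library was below every WT library, against 7.01% of all tested genes, and in 6 every one was above, against 8.29%. The median was -0.02 without cKO vehicle replicate 3 and -0.04 without WT vehicle replicate 3 or replicate 4. Without the 3 libraries that stood together the median was -0.09 and 12 Zfp genes had an unadjusted p under 0.05, and with the Y-linked covariate 10 had. With a KRAB-like pattern 104 of 142 were lower, median -0.14, and without it 83 of 153, median -0.02.

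Single genes of this comparison included Zfp871, at 322, 323 and 337 CPM in WT vehicle and 243, 228 and 232 CPM in cKO vehicle. The groups did not overlap, and the log2 fold change was -0.48 (SE 0.14, edgeR adjusted p = 0.369). Zfp182, Zfp169, Zfp619 and Zfp369 had log2 fold changes of -0.48, -0.41, -0.60 and -0.37. Zfp516, known as an activator of brown fat genes, was at 4.8, 4.27 and 5.19 CPM and 6.61, 8.18 and 7.68 CPM, with a log2 fold change of 0.65 (SE 0.19, edgeR adjusted p = 0.369). Zfp358, Zfp580, Zfp112 and Zfp428 had 0.67, 0.82, 0.61 and 0.81, and the last did not exceed 1.19 CPM in any library. Zfp46 and Zfp82 had log2 fold changes of 0.11 and 0.06, and Zfp46 was at -0.03 without cKO vehicle replicate 4.

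With DMαKG in both genotypes, cKO against WT, 233 of the 296 genes (78.7%) were lower, against 50% of all tested genes, with a median of -0.19 against 0.00. This comparison shares the cKO DMαKG libraries with the one that led to the choice. No Zfp gene passed edgeR's quasi-likelihood test and 0.0698% of all tested genes did. At an unadjusted p under 0.05 there were 48 Zfp genes (16.2%), against 10.5% of all. DESeq2 called 4 (1.35%), against 1.11% of all genes, namely Zfp39, Zfp46, Zfp708 and Zfp820. limma voom called 5 (1.69%), against 1.84% of all, namely Zfp180, Zfp39, Zfp53, Zfp820 and Zfp871. In 44 (14.9%) every cKO library was below every WT library, against 7.04% of all tested genes, and in 8 every one was above, against 7.92%. Without WT DMαKG replicate 3 the median was -0.11. Without the 3 libraries that stood together it was also -0.11 and 25 Zfp genes had an unadjusted p under 0.05, and with the Y-linked covariate 22 had. Ddx3y was at 0.518, 155 and 0.509 CPM in cKO DMαKG and at 140, 22.6 and 241 CPM in WT DMαKG. The Y-linked level and genotype therefore cannot be fully told apart in this comparison.

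Zfp39 was at 17.3, 17.9 and 14.4 CPM in WT DMαKG and 8.68, 11.6 and 9.67 CPM in cKO DMαKG. The groups did not overlap, and the log2 fold change was -0.73 (SE 0.17, edgeR adjusted p = 0.168). Zfp820 went the other way, at 1.76, 1.19 and 1.81 CPM and 4.08, 2.94 and 4.01 CPM, with a log2 fold change of 1.21 (SE 0.27, edgeR adjusted p = 0.134). Zfp81 and Zfp597 had -0.56 and -0.43. Zfp708 had -1.53 but shares 100% of its words with other genes, most of all with Gm28557. Zfp991, Zfp992, Zfp112 and Zfp516 had 0.50, 0.40, 0.55 and 0.41. Zfp46 and Zfp82 had -0.98 and -0.49, with each cKO library below each WT library.

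The difference between the DMαKG effects in the 2 genotypes contains the comparison that led to the choice and is a description. It was below 0 for 209 of the 296 genes (70.6%), against 51.3% of all tested genes, with a median of -0.14. edgeR called 0 of the 296 and 0% of all tested genes, with 11 of the 296 and 3.70% of all at an unadjusted p under 0.05, and DESeq2 and limma voom called none of the 296 and 0.00775% of all genes each. Zfp46 had -1.10 (SE 0.37) and Zfp82 -0.55 (SE 0.23). Zfp563 and Zfp708 had -0.90 and -1.38, and Zfp960, Zfp697 and Zfp808 had 2.04, 0.62 and 0.55. Zfp960 did not exceed 3.5 CPM in any library and shares 74.0% of its words with other genes, most of all with Zfp97. The median was -0.05 without WT DMαKG replicate 3 and -0.03 without the 3 libraries that stood together.

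KRAB proteins work through shared cofactors, and of 33 such genes listed 32 were tested. None passed edgeR's quasi-likelihood test in either direction in any of the 4 comparisons. At an unadjusted p under 0.05 there were 5 (15.6%) in cKO with DMαKG, where 17.4% of all tested genes were, and 0 in WT with DMαKG, where 2.73% were. There was 1 (3.12%) in cKO against WT with vehicle, where 7.40% of all were, and 4 (12.5%) with DMαKG, where 10.5% were. With DMαKG 20 of 32 (62.5%) were lower in cKO, median -0.09, against 49.6% of all tested genes. In WT 15 of 32 (46.9%) were lower, median 0.01, against 50.2%. Without overlap, 8 (25%) were lower in cKO, against 12.2% of all, and 1 (3.12%) was higher, against 8.91%. In WT 0 were lower without overlap, against 3.86%, and 2 (6.25%) were higher, against 4.59%. The cKO comparison led to the choice of the Zfp genes, so nothing is read from its counts. Trim28, the scaffold that KRAB domains bind, had a mean of 198 CPM (SD 11.1, n = 3) in cKO vehicle and 176 CPM (SD 46.4, n = 3) in cKO DMαKG, with a log2 fold change of -0.17 (SE 0.16). Setdb1, the methyltransferase, had 95.5 CPM (SD 3.51, n = 3) and 67.7 CPM (SD 12.1, n = 3), with a log2 fold change of -0.50 (SE 0.15, edgeR adjusted p = 0.164). In WT the log2 fold changes of Trim28 and Setdb1 were 0.03 and -0.17.

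With 3 libraries per group, log2 fold changes of DMαKG against vehicle in cKO had a median SE of 0.18 over all tested genes.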

How the data were processed

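The deposited table gave 3 values per gene and library. Estimated counts, TPM and FPKM were made by the authors. Tools in the submitters' processing notes are featureCounts 1.5.0-p3, DESeq2 1.16.1 and, with the mm10 build, HISAT2 2.0.5. No label or header states the strand setting of the counting, so overlapping antisense genes cannot be told apart. The deposited counts were to be tested as whole counts, but 36.0% were not whole, so they were rounded. FPKM as deposited served only to derive transcript lengths, and TPM as deposited chose the members and gave levels between genes. CPM, scaled by TMM, gave levels between libraries.

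Genes kept by filterByExpr (12903) entered one edgeR 4.0.16 quasi-likelihood fit in R 4.3.3 with 1 mean per group, and p-values were Benjamini-Hochberg adjusted over all of them. The common biological coefficient of variation was 19.7%. DESeq2 1.42.0 and limma 3.58.1 were alternatives. The limma voom fit used quality weights, which give each library its own weight. The script was tested on simulated data. After the calls were seen, 8 settings of the quasi-likelihood fit were compared to find why an earlier fit of the same data had called more genes. The standard setting named in the design was kept. Across the 8, vehicle cKO against WT had 3 to 9 calls among all genes and DMαKG cKO against WT had 9 to 24, and no setting called a Zfp gene in any comparison.

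Members and lists were chosen with earlier results of these data known. Named were Zfp46 and Zfp82, the 10 genes of highest TPM, those next to the threshold, the largest non-overlapping differences in cKO (at least 5 CPM in a group), the 5 per direction of smallest p in other comparisons, 3 per direction in the interaction, and runs holding Zfp46 or Zfp82. C2H2 and KRAB-like patterns were searched in GENCODE M21 coding sequences. The replicate numbers were not treated as a pairing in the main fit.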

Additional observations from a re-analysis of the deposited data

How the results depend on the processing

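Medians of the Zfp genes stayed below 0 in all 5 comparisons under every alternative run, including each left-out library. DESeq2 and limma voom called 19 and 15 Zfp genes in cKO with DMαKG, of 385 and 450 genes in all, and 4 and 5 in cKO against WT with DMαKG, of 143 and 237. limma voom called 6 of 245 in cKO against WT with vehicle. Without the 3 libraries that stood together, 1 of 13 was called in cKO with DMαKG and the interaction median was -0.031. Leaving out 1 library gave 0 to 7 calls in cKO with DMαKG (7, of 112 in all, without WT DMαKG replicate 3, which enters that fit through the shared spread) and interaction medians of -0.18 to -0.046. The cause of these differences was not tested. Zfp46 in cKO against WT with vehicle reversed to -0.12 with a Y-linked covariate and to -0.028 without cKO vehicle replicate 4, and ran up to 0.30 without WT vehicle replicate 4. With limma voom the vehicle cKO against WT median was -0.11 and the interaction median -0.06. Robust quasi-likelihood estimation, added after seeing the data, called no Zfp gene. With the replicate number as a block, no Zfp gene was called, the medians were -0.23 in cKO and -0.09 in WT with DMαKG, and Zfp genes at an unadjusted p under 0.05 went from 99 to 59 and from 13 to 3. Same-numbered libraries correlated in their deviations from -0.27 to 0.44, with the highest value between replicate 4 of both vehicle groups. With so few libraries, these correlations cannot show whether the numbers reflect a pairing. Leaving out 1 library gave 1 (without WT DMαKG replicate 2) to 67 (without WT DMαKG replicate 3) Zfp genes at an unadjusted p under 0.05 in WT with DMαKG, including 5 without WT vehicle replicate 4 and 6 without WT DMαKG replicate 1.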
